A study of Mus musculus with 2 samples.

Results

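Conventional type 1 dendritic cells (cDC1) and mature, Ccr7-expressing dendritic cells were picked out of CD45+ leukocytes from B16 tumours, a transplanted mouse melanoma, and described side by side. Members were barcodes with at least 20 UMIs (unique molecular identifiers, each counting 1 captured transcript) of the MHC class II genes H2-Aa, H2-Ab1 and H2-Eb1 together. They also had at most 1 UMI of Cd3d, Cd3e and Cd3g and fewer than 10 of the macrophage complement genes C1qa, C1qb and C1qc. The cDC1 arm then asked for at least 1 UMI of Xcr1 and Clec9a, and the mature arm for at least 2 UMIs of Ccr7, Fscn1 and Cacnb3. In all 63 of 2611 barcodes met the rule: 35 met the mature criterion alone, 25 met the cDC1 criterion alone and 3 met both.

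The tumours were taken on day 14 from female C57BL/6 mice aged 5 weeks, and there were 2 libraries, 1 per genotype. The Nrp1L/L Foxp3Cre-YFP mice carry Cre recombinase and a yellow fluorescent protein expressed from the Foxp3 locus, together with a floxed Nrp1, so that deletion is directed to Foxp3-expressing regulatory T cells and not to dendritic cells. The control mice carry the same Foxp3Cre-YFP without the floxed Nrp1. With 1 library per genotype no comparison could be tested, and the effects of genotype, animal, tumour and library preparation cannot be told apart. Every interval below is a 95% interval for counting error alone.

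cDC1 carry the chemokine receptor XCR1 and the dead-cell receptor CLEC9A, depend on the transcription factors IRF8 and BATF3, and are known for presenting tumour antigen on MHC class I to CD8 T cells. Mature dendritic cells have passed through an activation programme that switches on the lymph node homing receptor CCR7 and the actin-bundling protein fascin (FSCN1), along with costimulatory molecules, NF-κB genes and inhibitory ligands. Both cDC1 and cDC2 can enter that state, and markers of origin are known to be lost on the way.

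The libraries held 1301 barcodes and 8978610 UMIs (Nrp1L/L) and 1310 barcodes and 13042802 UMIs (control), with median depths of 5334 and 8079.5 UMIs per barcode, 1.51-fold higher in the control. Members were nearer in depth, with medians of 9488.5 UMIs (3056 to 16067) in the Nrp1L/L library and 10342 (4885 to 84144) in the control. The libraries shared 3 barcode sequences, of which 0 were members. A single control barcode stood apart: it held 84144 UMIs, among them 944 of melanoma genes and 1410 of cell cycle genes, but 5 UMIs of Fscn1, 1 of Ccr7 and 31 of the MHC class II genes. It met the mature rule, so counts over gene lists in control mature cells are given with and without it. CPM values of control mature cells include it unless stated, and those of Ccr7, Relb and Cd40, for example, were 3449, 452 and 361 CPM without it.

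Mature dendritic cells and cDC1 were both rarer among Nrp1L/L than among control barcodes. They were 10 of 1301 barcodes, 0.769% (Clopper-Pearson interval 0.369% to 1.41%), in the Nrp1L/L library and 53 of 1310, 4.05% (3.05% to 5.26%), in the control, a difference of -3.28 percentage points (Newcombe interval -4.54 to -2.14). The mature criterion was met by 8 Nrp1L/L barcodes, 0.615% (0.266% to 1.21%), and by 30 control barcodes, 2.29% (1.55% to 3.25%), so the control share was 3.72-fold higher. The cDC1 criterion was met by 3 Nrp1L/L barcodes, 0.231% (0.0476% to 0.672%), and by 25 control barcodes, 1.91% (1.24% to 2.80%), an 8.28-fold higher control share. Neither pair of intervals overlapped, and these shares were set by the rule that defines the cells.

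Other MHC class II-positive barcodes were also rarer in the Nrp1L/L library. Barcodes passing the MHC class II, CD3 and C1q gates with or without either criterion were 6.84% of the Nrp1L/L library (89) and 19.4% of the control (254). Barcodes with at least 10 C1q UMIs under the same gates were 5.61% (73) and 11.1% (145). Among gated barcodes the mature criterion was met by 8.99% (8 of 89) in the Nrp1L/L library and 11.8% (30 of 254) in the control, a difference of -2.82 points whose interval ran from -9.13 to 5.65. The cDC1 criterion was met by 3.37% (3 of 89) of gated Nrp1L/L barcodes and 9.84% (25 of 254) of gated control barcodes, a difference of -6.47 points with an interval of -11.3 to 0.344. The interval of each arm's difference within the gate thus held 0. Both arms together were 11.2% (10 of 89) of gated Nrp1L/L barcodes and 20.9% (53 of 254) of gated control barcodes, a difference of -9.63 points whose interval, -17.0 to -0.233, did not. With every cell thinned to 2500 UMIs, 6 Nrp1L/L and 25 control cells met the mature criterion, and 1 Nrp1L/L and 15 control cells met the cDC1 criterion. The mature difference turned once barcodes with at least 3 UMIs of B, T, natural killer or plasmacytoid dendritic cell markers were left out, which kept 161 Nrp1L/L and 602 control barcodes. Mature cells were then 2.48% (4 Nrp1L/L) and 2.33% (14 control), a difference of 0.159 points (-2.001 to 4.003).

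**Figure D1:**
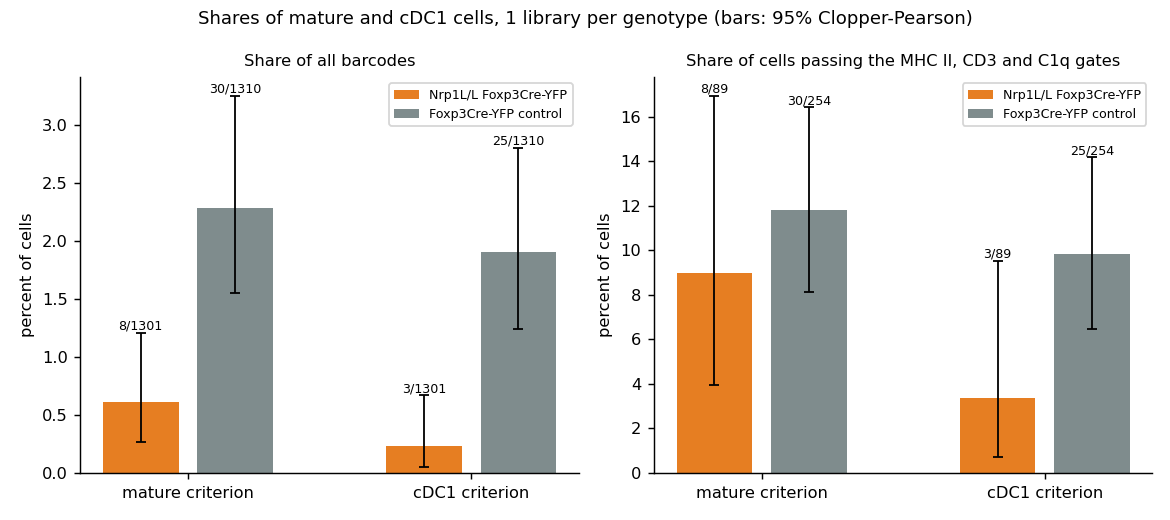
Percent of barcodes meeting the mature and the cDC1 criterion in the Nrp1L/L (orange) and control (grey) libraries, of all barcodes (left) and of barcodes passing the MHC class II, CD3 and C1q gates (right). Error bars are 95% Clopper-Pearson intervals and the labels give counts. The intervals stand apart on the left (0.615% against 2.29%, and 0.231% against 1.91%) and overlap on the right.

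The labels of both arms were set beside genes the rule had not used. Each cell's UMIs were added over 22 cDC1 identity genes (such as Wdfy4, Irf8, Naaa and Itgae) and 30 mature identity genes (such as Ccl22, Il4i1, Relb and Socs2). The lists were chosen with earlier results of these data known, so they are no independent check. Control cDC1 cells carried a median of 104 cDC1 identity UMIs per 10000 (9.20 to 180) and 14.8 mature identity UMIs per 10000 (4.15 to 39.97). Of the 2 Nrp1L/L cDC1 cells, the first had 103 cDC1 identity UMIs per 10000 and 6 UMIs of Xcr1. The second had 8.79 per 10000, with 2 UMIs of Clec9a beside 96 UMIs of monocyte markers and 46 of cDC2 markers, so its label rests on Clec9a alone. Among control cDC1 cells, 2 likewise stood low, at 33.3 and 9.20 cDC1 identity UMIs per 10000, with 39 and 288 monocyte marker UMIs.

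The mature arm was not uniform, and in the control library its spread followed the rule's own genes. In the control library 16 mature cells (without the barcode of 84144 UMIs) had UMIs of both Ccr7 and Fscn1, and their mature identity UMIs ran from 96.8 to 306 per 10000 with a median of 189. The other 11 had Ccr7 or Fscn1 but not both, and ran from 10.3 to 188 with a median of 22.3. In the Nrp1L/L library 5 mature cells with both genes ranged from 20.5 to 283 with a median of 208, and the 2 without both had 68.7 and 110. This division was made after the values were seen and carries no test.

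**Figure D2:**
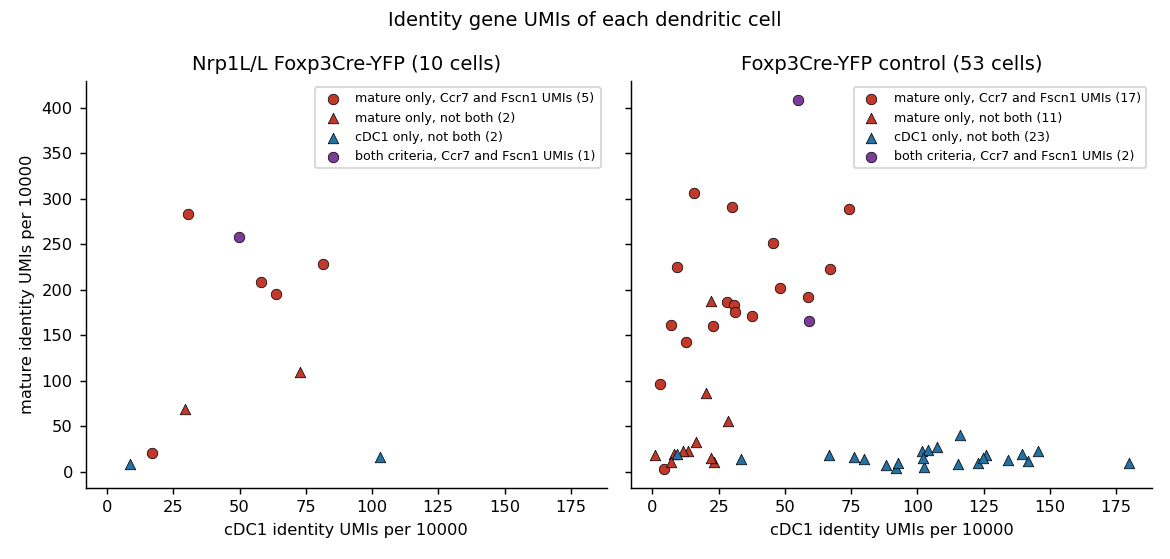
Each point is a barcode, with UMIs of the cDC1 identity genes per 10000 on the x axis and of the mature identity genes per 10000 on the y axis, in the Nrp1L/L (left) and control (right) libraries. Colours give the criterion met, and circles mark cells with UMIs of both Ccr7 and Fscn1. Control cDC1 cells lie along the bottom with at most 39.97 on the y axis, cells with both Ccr7 and Fscn1 lie mostly above 96.8, and the other control mature cells spread between 10.3 and 188.

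Of the 11 control mature cells without both genes, 5 carried Cd209a, a lectin of cDC2 and monocyte-derived cells, with 76 UMIs, against 0 of the 16 with both. Mgl2, another cDC2 lectin, was in 5 of the 11 and in 0 of the 16. The cDC2 marker list had a median of 49.3 UMIs per 10000 (8.01 to 110) in the 11 cells and 7.37 (0 to 17.5) in the 16. Monocyte markers showed the same split, with medians of 31.7 per 10000 (2.67 to 603) and 1.33 (0 to 35.1). Type I interferon response genes had medians of 41.9 per 10000 (0 to 104) in the 11 and 7.76 (0 to 194) in the 16, and pooled levels of 46.9 and 36.0. Conversely Serpinb6b, a serpin of the mature identity list, was found in 16 of 16 cells with both genes and in 1 of 11 without. Cd200, the ligand of an inhibitory myeloid receptor, was found in 10 of 16 and 0 of 11. A count of 2 UMIs over Ccr7, Fscn1 and Cacnb3 thus gathered cells with cDC2 and monocyte transcripts as well, and the part of these transcripts in the results below was not tested.

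Values next to the cutoffs were as follows. In the control library 5 cDC1 cells had exactly 1 UMI of Xcr1 and Clec9a, and their cDC1 identity ran from 9.20 to 134 per 10000, with a median of 88.2 against 111 in the 18 cells with more. The 3 control mature cells at exactly 2 UMIs had mature identity of 11.0, 18.7 and 32.9 per 10000. Gated cells with 1 UMI of the mature genes, just outside the rule, numbered 6 (Nrp1L/L) and 9 (control). Their mature identity had medians of 14.5 (10.3 to 26.0) and 15.0 (3.79 to 110) per 10000. Their cDC1 identity reached 47.1 and 113 per 10000, so some control cells outside the rule had values as high as members. Lowering the MHC class II bound to 10 would have added 0 Nrp1L/L and 4 control cells.

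The defining genes were themselves nearly exclusive to their arms, as the rule requires, and serve as description. Xcr1 stood at 258 CPM (UMIs of the gene per 1000000 UMIs, over the summed cells of a group) in Nrp1L/L cDC1 cells and 240 CPM (188 to 303) in control cDC1 cells, where 17 of 23 cells had it. Clec9a was at 86.1 CPM in Nrp1L/L cDC1 cells and 156 CPM (114 to 208) in control cDC1 cells. Ccr7 was at 1517 CPM in 7 of 7 Nrp1L/L mature cells and 2589 CPM in 26 of 28 control mature cells. Fscn1 was at 2674 CPM in 5 of 7 Nrp1L/L mature cells and 1314 CPM in 19 of 28 control mature cells. Wdfy4, needed for cross-presentation and not part of the rule, had 281 CPM (224 to 348) and was in 19 of 23 control cDC1 cells, against 1 of 28 control mature cells. It was in 1 of 7 Nrp1L/L mature cells and in 0 of the 2 Nrp1L/L cDC1 cells.

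Free RNA gave little of these transcripts. Xcr1, Clec9a, Wdfy4 and Fscn1 were found in 0 of 146 Nrp1L/L and 0 of 73 control natural killer cells, which allows shares of up to 2.05% and 4.11%. These natural killer cells were shallower, with medians of 4137.5 and 5314 UMIs. Ccr7 was found in 2.74% of Nrp1L/L and 8.22% of control natural killer cells, and in 8.70% (2 of 23) of control cDC1 cells, close to the share in control natural killer cells. Some other genes named here were commoner in Nrp1L/L and control natural killer cells. H2-Aa was in 14.4% and 34.2% of them, Tmem123 in 27.4% and 43.8%, Cd83 in 2.05% and 19.2%, and Irf8 in 87.0% and 80.8%. Whether free RNA or the cells' own expression gave these was not tested. Low counts of other cell types' markers were common: 4 of 7 Nrp1L/L and 13 of 28 control mature cells, and 0 of 2 Nrp1L/L and 12 of 23 control cDC1 cells, had under 3 UMIs of each of the B, T, natural killer and plasmacytoid dendritic cell lists. Their part in the results was not tested. Basophil, mast cell and neutrophil markers had 0 UMIs in the mature cells of both libraries. B cell markers had 19 UMIs (7 of Ms4a1) in 1 Nrp1L/L mature cell, 1 UMI in 1 control mature cell and 0 in the cDC1 cells of both libraries. Natural killer markers ran from 0 to 5 UMIs in Nrp1L/L and 0 to 15 in control mature cells.

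Mature over cDC1 cells were compared within each library. Mature identity genes were higher in the mature arm of both libraries, and cDC1 identity genes were higher in the cDC1 arm of the control. In the Nrp1L/L library cDC1 identity genes differed less. Genes of the rule were left out, and genes with at least 20 UMIs over both arms were counted. In the control library 21 of 25 measured mature identity genes were at least 2-fold higher and 0 lower, where 22.0% of all 3514 genes were at least 2-fold higher and 12.7% lower. Their median log2 ratio was 3.87, beside 0.13 for all genes. Without the barcode of 84144 UMIs 24 of 25 were higher with a median of 4.29, where 17.7% of 3017 genes were higher and 17.8% lower. In the Nrp1L/L library 12 of 12 measured were higher with a median of 3.58, where 21.4% of 626 genes were higher and 16.0% lower. Because cells were chosen by genes that travel with these lists, the counts describe the arms and are not independent evidence of them.

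The chemokine Ccl5, which draws T cells and natural killer cells, had the surest difference among higher genes once that barcode was left out. It stood at 1608 CPM in Nrp1L/L mature cells and 86.1 CPM in Nrp1L/L cDC1 cells, a log2 ratio of 4.22 (2.33 to 7.29). In the control it stood at 4679 CPM in mature cells and 47.3 CPM in cDC1 cells, a log2 ratio of 6.63 (5.88 to 7.50), or 7.04 without that barcode. It was uneven between cells: 76 of the 89 Nrp1L/L mature UMIs came from 1 cell, and control mature cells ranged from 0 to 460 UMIs per 10000 with a median of 13.4. Ccl22, a ligand of CCR4 on regulatory T cells, had 53 UMIs in 2 of 7 Nrp1L/L mature cells, 51 of them in 1 cell, and 161 UMIs in 16 of 28 control mature cells. It had 0 UMIs in the cDC1 cells of both libraries. Its log2 ratio was therefore at least 2.89 in the Nrp1L/L library and at least 5.56 in the control, against a floor of 3 counts over the cDC1 group. Ccl17, the other CCR4 ligand, was in 11 of 28 control mature cells at 354 CPM, with 70 of 119 UMIs in 1 cell, and 62 UMIs in 1 of 23 control cDC1 cells also gave that arm 210 CPM.

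Cd63, a tetraspanin of late endosomes, had 64 UMIs in Nrp1L/L mature cells and 0 in Nrp1L/L cDC1 cells, a log2 ratio of at least 3.16. In the control it had 606 UMIs in mature cells and 1 in cDC1 cells, a log2 ratio of 9.06, or 8.64 from 340 UMIs without the barcode of 84144 UMIs, which alone held 266. Fabp5, a fatty acid binding protein, stood at 2186 CPM in Nrp1L/L mature cells with 0 UMIs in Nrp1L/L cDC1 cells. It stood at 2658 CPM in control mature cells and 44.0 CPM in control cDC1 cells (log2 ratio 5.92, 5.14 to 6.83), and the cDC1 UMIs came from 1 cell. Further genes at the top in both libraries were Tmem176a, Tmem176b and, in the control without that barcode, Il4i1, Arl5c, AA467197 and Tmem123. Il4i1, an amino acid oxidase that restrains T cells, stood at 1084 CPM in Nrp1L/L mature cells. In Nrp1L/L cDC1 cells it stood at 86.1 CPM, from 2 UMIs in the cell low in cDC1 identity. In the control it stood at 327 CPM in mature cells, in 18 of 28, with 0 UMIs in cDC1 cells. The melanocyte genes Dct, Mlana, Tyrp1 and Ptgds also ranked high in the control, at 663, 606, 464 and 437 CPM of mature cells. The list of 8 measured melanoma genes owed 944 of 951 UMIs to the barcode of 84144 UMIs, and without it none reached 20 UMIs.

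**Figure D3:**
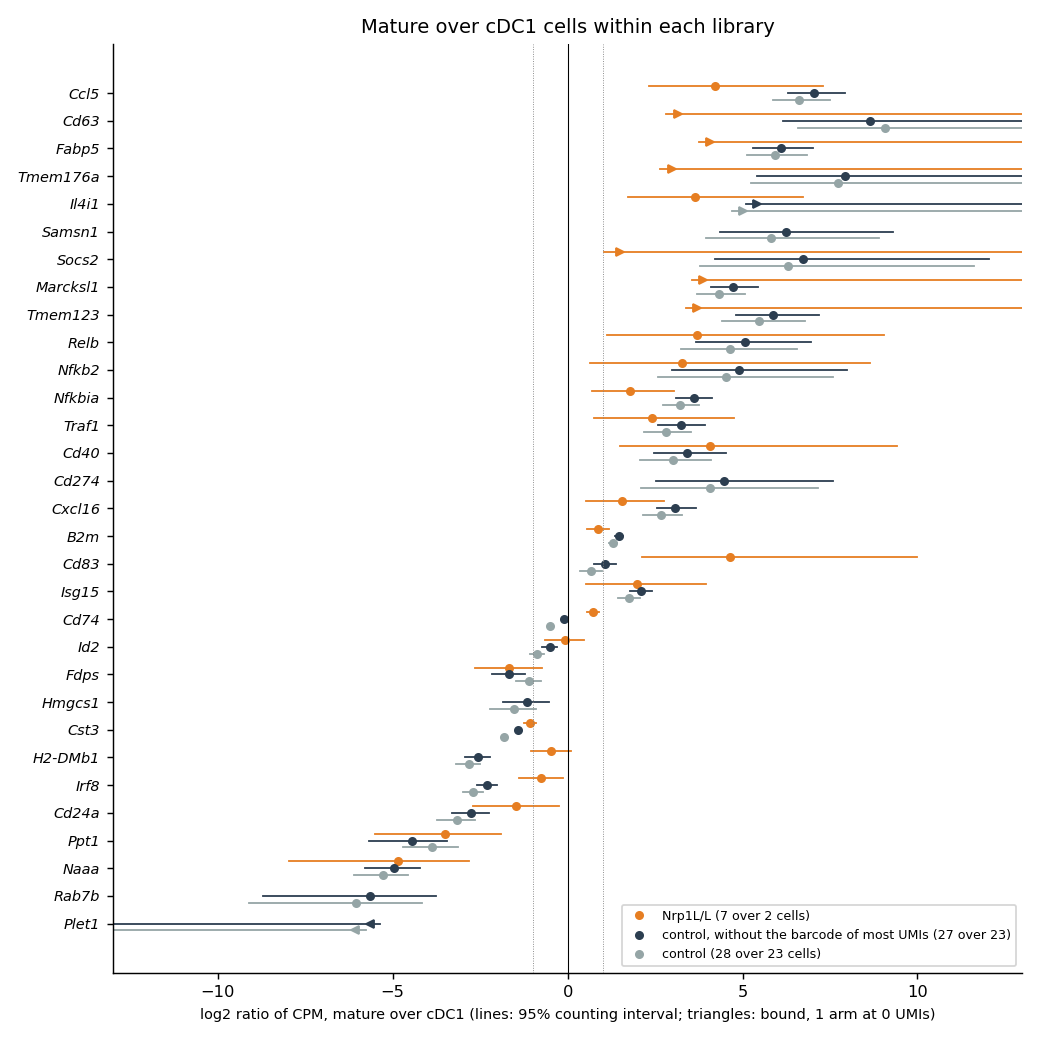
Log2 ratio of CPM, mature over cDC1 cells (x axis), for named genes (y axis) in the Nrp1L/L library (orange, 7 over 2 cells), the control without the barcode of most UMIs (dark, 27 over 23) and the whole control (grey, 28 over 23). Lines are 95% counting intervals and triangles are bounds where 1 arm had 0 UMIs. Ccl5 lies between 4.22 and 7.04 and Naaa between -5.28 and -4.84.

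NF-κB pathway genes were higher in mature cells as a group. Nfkb2, Traf1 and Birc3 are on both this list and the mature identity list, and Relb is a mature identity gene. The counts are therefore not separate from those of mature identity. In the Nrp1L/L library 4 of 5 measured were at least 2-fold higher and 0 lower (median log2 ratio 2.41). In the control 13 of 16 were higher and 0 lower (median 1.84), and without the barcode of 84144 UMIs 14 of 16 (median 2.25). The shares of all genes at least 2-fold higher were 21.4%, 22.0% and 17.7% in that order. Relb, a subunit of the non-canonical pathway, stood at 560 CPM in Nrp1L/L mature cells. In Nrp1L/L cDC1 cells it stood at 43.0 CPM, from 1 UMI in the cell low in cDC1 identity. Relb stood at 339 CPM in control mature cells and 13.5 CPM in control cDC1 cells. Nfkb2, its p100 and p52 partner, stood at 415 CPM in Nrp1L/L mature cells and 43.0 CPM in Nrp1L/L cDC1 cells. In the control its values were 155 CPM in mature cells and 6.76 CPM (2 UMIs) in cDC1 cells, a log2 ratio of 4.51 (2.59 to 7.60). Nfkbia, which encodes an inhibitor that NF-κB itself induces, was found in 28 of 28 control mature cells and 11 of 23 control cDC1 cells (log2 ratio 3.22, 2.73 to 3.76). In the Nrp1L/L library its log2 ratio was 1.77 (0.71 to 3.04). Bcl2a1b, a survival gene, went both ways, at -0.67 (-1.19 to -0.13) in the Nrp1L/L library and 1.78 (1.52 to 2.05) in the control.

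Promoters of 4 genes are shown because Cd63 and Plet1 headed the higher and lower genes of the whole control (Ccl5 and Plet1 without the barcode of 84144 UMIs, Fabp5 and Fuca2 in the Nrp1L/L library) and Nfkb2 and Nfkbie are NF-κB genes higher in mature cells; the last pair was chosen after values were seen. The windows run from 250 bases before to 50 after the RefSeq start on GRCm38.p6, 5′ to 3′ on the plus strand, and capitals mark matches to the kappa B motif on either strand.
Cd63, chr10:128909095-128909394: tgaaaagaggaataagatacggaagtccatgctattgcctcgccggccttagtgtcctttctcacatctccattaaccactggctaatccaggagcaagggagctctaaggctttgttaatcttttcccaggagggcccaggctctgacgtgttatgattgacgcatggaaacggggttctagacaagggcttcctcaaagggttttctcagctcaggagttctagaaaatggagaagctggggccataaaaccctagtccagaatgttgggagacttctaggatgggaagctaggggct
Plet1, chr9:50494275-50494574: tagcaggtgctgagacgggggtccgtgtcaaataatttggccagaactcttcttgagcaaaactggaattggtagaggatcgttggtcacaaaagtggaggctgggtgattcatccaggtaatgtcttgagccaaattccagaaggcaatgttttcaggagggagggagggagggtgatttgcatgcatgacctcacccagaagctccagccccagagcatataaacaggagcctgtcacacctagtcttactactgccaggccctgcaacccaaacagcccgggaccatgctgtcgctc
Nfkb2, chr19:46304487-46304786: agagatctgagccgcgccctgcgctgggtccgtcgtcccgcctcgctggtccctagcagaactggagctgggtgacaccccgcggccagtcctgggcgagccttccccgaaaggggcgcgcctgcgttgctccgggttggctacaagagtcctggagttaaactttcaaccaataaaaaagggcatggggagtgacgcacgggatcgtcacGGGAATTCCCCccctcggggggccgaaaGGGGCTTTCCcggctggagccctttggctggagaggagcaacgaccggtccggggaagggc
Nfkbie, chr17:45555450-45555749: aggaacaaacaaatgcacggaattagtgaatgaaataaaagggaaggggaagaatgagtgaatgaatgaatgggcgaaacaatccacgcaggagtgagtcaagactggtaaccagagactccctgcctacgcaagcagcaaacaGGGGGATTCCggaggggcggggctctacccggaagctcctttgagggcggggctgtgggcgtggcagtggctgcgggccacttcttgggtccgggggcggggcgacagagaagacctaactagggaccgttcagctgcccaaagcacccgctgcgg
The Nfkb2 window shown had 2 capital stretches, Nfkbie 1, and Cd63 and Plet1 had 0. Nfkb2 has 3 annotated starts, and the windows of the other two held 2 and 1. The motif was in the windows of 7 of 15 NF-κB list genes (46.7%: Rel, Nfkb2, Nfkbia, Nfkbie, Tnfaip3, Tnip1 and Bcl2l1), 3 of 22 mature identity genes (13.6%) and 1 of 16 cDC1 identity genes (6.25%). It was in 5.14% of 27025 genes and 4.51% of 32851 windows. Nfkb2 is counted in both the NF-κB and the mature identity lists. A match is a run of letters and not a measured binding site.

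Costimulatory genes were higher in mature cells, with 3 of 4 measured higher and 1 lower in the Nrp1L/L library (median 2.89). In the control 5 of 8 were higher and 1 lower (median 2.57), and 7 of 8 higher without the barcode of 84144 UMIs (median 2.99). Among all genes 21.4%, 22.0% and 17.7% were at least 2-fold higher in these comparisons, in that order, and 16.0%, 12.7% and 17.8% lower. Cd40, the receptor for T cell help, stood at 723 CPM in Nrp1L/L mature cells, against 271 and 33.8 CPM in control mature and cDC1 cells. In Nrp1L/L cDC1 cells it stood at 43.0 CPM, from 1 UMI in the cell low in cDC1 identity. Cd83 was the most shared of them, in 7 of 7 Nrp1L/L and 25 of 28 control mature cells and in 23 of 23 control cDC1 cells. Its log2 ratio was 4.65 (2.12 to 9.98) in the Nrp1L/L library and 0.66 (0.34 to 0.98) in the control, or 1.07 without that barcode. Cd86 had 0.83 (0.33 to 1.35) in the control, and 1.24 without it.

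Inhibitory ligands and regulators stood beside them, with 7 of 13 at least 2-fold higher and 2 lower in the control (median 1.04). Without that barcode 7 were higher and 0 lower. In the Nrp1L/L library 2 of 4 were higher and 0 lower (median 0.34). Among all genes 22.0%, 17.7% and 21.4% were higher in these comparisons, in that order, and 12.7%, 17.8% and 16.0% lower. Summed over the list the order was the other way, with medians of 18.4 UMIs per 10000 in mature and 55.2 in cDC1 cells of the Nrp1L/L library, and 34.4 and 47.0 in the control. Cd274, which encodes PD-L1, was found in 3 of 7 Nrp1L/L and 18 of 28 control mature cells, at 126 and 113 CPM, and in 2 of 23 control cDC1 cells. Tnfrsf4, which encodes OX40, had 343 CPM in Nrp1L/L and 303 CPM in control mature cells, against 43.0 CPM (1 UMI) and 6.76 CPM (2 UMIs) in cDC1 cells. In the control 13 of the 16 mature cells with both Ccr7 and Fscn1 had it, and 1 of the 11 without. Socs2, a suppressor of cytokine signalling, had 90 UMIs in control mature cells and 1 in control cDC1 cells. Lgals3 went the other way, at -0.80 (-1.14 to -0.47) in the Nrp1L/L library and -1.11 (-1.24 to -0.99) in the control, or -0.71 without that barcode.

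Interferon lists gave smaller differences, to be read against the shares of all genes at least 2-fold higher, 21.4% in the Nrp1L/L library and 22.0% in the control. Type I interferon response genes were at least 2-fold higher for 2 of 4 measured in the Nrp1L/L library, with 0 lower (median 0.75). In the control 8 of 16 were higher and 1 lower (median 1.34), against 11 and 0 without the barcode of 84144 UMIs (median 1.53). Medians over cells ran in the opposite order in the Nrp1L/L library, at 5.70 UMIs of the list per 10000 in mature and 25.2 in cDC1 cells. Of the 209 Nrp1L/L mature UMIs 132 came from 1 cell. In the control these medians were 20.1 in mature cells, 7.76 in the 16 of them with both Ccr7 and Fscn1, and 12.2 in cDC1 cells. Isg15 stood at 686 CPM in Nrp1L/L mature and 172 CPM in Nrp1L/L cDC1 cells, and at 1213 CPM in control mature and 362 CPM in control cDC1 cells. Interferon-gamma response genes were higher for 1 of 6 measured in the Nrp1L/L library (median 0.53) and for 6 of 16, with 1 lower, in the control (median 0.41), or 4 of 14 with 0 lower without that barcode (median 0.70). Psmb8, an immunoproteasome subunit, had log2 ratios of 0.90 (0.37 to 1.48) in the Nrp1L/L library and -0.24 (-0.39 to -0.09) in the control, where it turned to 0.092 without that barcode. The MHC class I list had medians of 0.73 in the Nrp1L/L library and -0.22 in the control, with 5 of 14 and 4 of 19 genes higher, the control count being near the share of all genes, and the control median turned to 0.12 without that barcode. B2m, the MHC class I light chain, was higher in both, at 0.87 (0.56 to 1.19) in the Nrp1L/L library and 1.301 (1.20 to 1.41) in the control.

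The control cDC1 arm carried its lineage genes, and the Nrp1L/L arms were closer to each other. Medians of cDC1 identity UMIs per 10000 were 22.2 in control mature and 104 in control cDC1 cells. For the Nrp1L/L library they were 58.2 in the 7 mature cells (16.8 to 81.5) and 55.8 in the 2 cDC1 cells (8.79 and 103). In the Nrp1L/L library 0 of 7 measured cDC1 identity genes were at least 2-fold higher in mature cells and 3 lower (median -0.77). In the control 0 of 16 were higher and 12 lower (median -3.37), or 0 and 12 of 15 without the barcode of 84144 UMIs (median -3.15). The shares of all genes at least 2-fold lower were 16.0%, 12.7% and 17.8% in that order. Naaa, a lysosomal amide hydrolase, had 2 UMIs in Nrp1L/L mature cells and 24 in Nrp1L/L cDC1 cells, a log2 ratio of -4.84 (-7.96 to -2.83). In the control it had 16 UMIs in mature cells and 545 in cDC1 cells, where 22 of 23 cells had it, a log2 ratio of -5.28 (-6.09 to -4.56). Plet1, an epithelial and dendritic surface protein, had 0 UMIs in control mature cells and 178 in 14 of 23 control cDC1 cells, so its log2 ratio was at most -6.08. It had 0 UMIs in Nrp1L/L members of either arm. Itgae, which encodes CD103, split the control cDC1 cells in the same numbers, with UMIs in 14 of 23 and 0 of 28 mature cells. Rab7b and Ppt1, both of lysosomal traffic and degradation, stood at -6.06 and -3.87, and Fcrla, Sept3, Tm6sf1 and Pus3 were also among the lower genes in the control.

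Lineage transcription factors were found in both arms. Irf8 stood at 1012 CPM in Nrp1L/L mature cells and 1722 CPM in Nrp1L/L cDC1 cells, a log2 ratio of -0.77 (-1.38 to -0.14). It stood at 378 CPM in control mature cells and 2448 CPM in control cDC1 cells (-2.70, -2.98 to -2.42). Among control mature cells Irf8 was in 16 of the 16 with both Ccr7 and Fscn1, at 786 CPM, and in 5 of the 11 without, at 134 CPM. Batf3, its partner, was in 12 of the 16 at 429 CPM and 2 of the 11 at 62.3 CPM, beside 348 CPM in control cDC1 cells. Naaa, Plet1 and Itgae were at 0 in the 16. Id2, a regulator on the cDC1 identity list, differed by -0.09 (-0.63 to 0.48) in the Nrp1L/L library. In the control it differed by -0.88 (-1.08 to -0.68), or -0.52 without the barcode of 84144 UMIs.

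Antigen processing genes of MHC class II were mixed. In the Nrp1L/L library 3 of 8 were at least 2-fold higher and 1 lower in mature cells (median 0.70), where 21.4% of all genes were higher and 16.0% lower. In the control 3 of 13 were higher and 6 lower (median -0.85), where 22.0% of all genes were higher and 12.7% lower. That higher count was near the share of all genes. Without the barcode of 84144 UMIs 3 of 12 were higher and 3 lower (median -0.27), where 17.7% of all genes were higher and 17.8% lower. H2-DMb1, part of the peptide loading chaperone, had 81 UMIs in control mature and 507 in control cDC1 cells (-2.83, -3.19 to -2.49). Within control mature cells it was in 6 of the 16 with both Ccr7 and Fscn1 and in 10 of the 11 without. Cst3, a cathepsin inhibitor abundant in cDC1, had log2 ratios of -1.08 (-1.26 to -0.90) in the Nrp1L/L library and -1.81 (-1.86 to -1.77) in the control.

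The study's title names SREBP1 and lipid metabolism. A list of SREBP1 genes held 2.89 pooled UMIs per 10000 in Nrp1L/L mature and 2.15 in Nrp1L/L cDC1 cells. In the control it held 3.15 in mature cells (2.02 without the barcode of 84144 UMIs) and 3.18 in cDC1 cells. The cholesterol genes below are another list. Srebf1 itself had 0 UMIs in the 7 mature and 2 cDC1 Nrp1L/L cells, and 2 and 3 UMIs in control mature and cDC1 cells. Of 16 measured cholesterol genes in the control 0 were at least 2-fold higher and 5 lower in mature cells (median -0.60), or 1 and 6 of 14 without the barcode of 84144 UMIs (median -0.60). Among all genes 22.0% were higher and 12.7% lower, or 17.7% and 17.8% without that barcode. Fdps, a mevalonate pathway enzyme, had log2 ratios of -1.67 (-2.64 to -0.73) in the Nrp1L/L library and -1.11 (-1.47 to -0.75) in the control. Nrp1 itself had 0 UMIs in Nrp1L/L mature and cDC1 cells. It was in 4 of 28 control mature cells at 26.8 CPM (12.2 to 50.8) and in 7 of 23 control cDC1 cells at 50.7 CPM (28.4 to 83.7). A count of 0 in the 7 mature and 2 cDC1 Nrp1L/L cells allows up to 54.2 and 129 CPM, so a difference was not detectable at this depth.

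**Figure D4:**
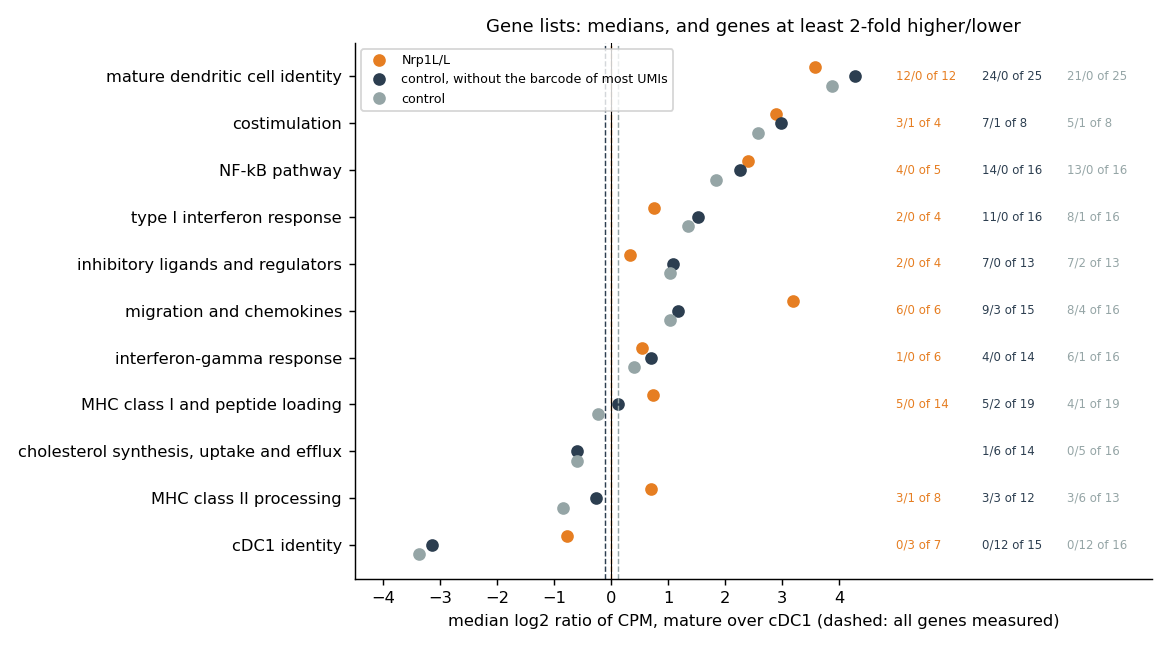
Median log2 ratio of CPM, mature over cDC1 cells (x axis), of selected gene lists (y axis) in the Nrp1L/L library (orange), the control without the barcode of most UMIs (dark) and the whole control (grey). Numbers at the right are genes at least 2-fold higher and lower of those measured, and dashed lines are the medians of all genes. Of the lists drawn, mature identity has the highest medians in all 3 (3.58, 4.29 and 3.87) and cDC1 identity the lowest.

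The 3 cells meeting both criteria resembled the mature arm. The Nrp1L/L cell had 258 mature and 49.9 cDC1 identity UMIs per 10000. The 2 control cells had 165 and 409 mature and 59.2 and 54.8 cDC1 identity UMIs per 10000. Their cDC1 criterion rested on 2 UMIs of Clec9a in the Nrp1L/L cell and on 1 UMI each, of Xcr1 and of Clec9a, in the control cells. Each carried Il12b, the shared subunit of interleukin-12 and interleukin-23, with 29 UMIs in the Nrp1L/L cell and 17 and 23 in the control cells. Il12b was otherwise in 0 of 7 Nrp1L/L mature cells, 3 of 28 control mature cells (15, 9 and 13 UMIs), 0 of 2 Nrp1L/L cDC1 cells and 2 of 23 control cDC1 cells (10 and 5 UMIs). Irf8 had 41 UMIs in the Nrp1L/L cell and 17 and 32 in the control cells, while Wdfy4 was at 0 in all 3. None of the 3 was among the highest 2% of doublet scores of its library. The gene was looked at after its values were seen, and 3 cells allow no comparison.

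**Figure D5:**
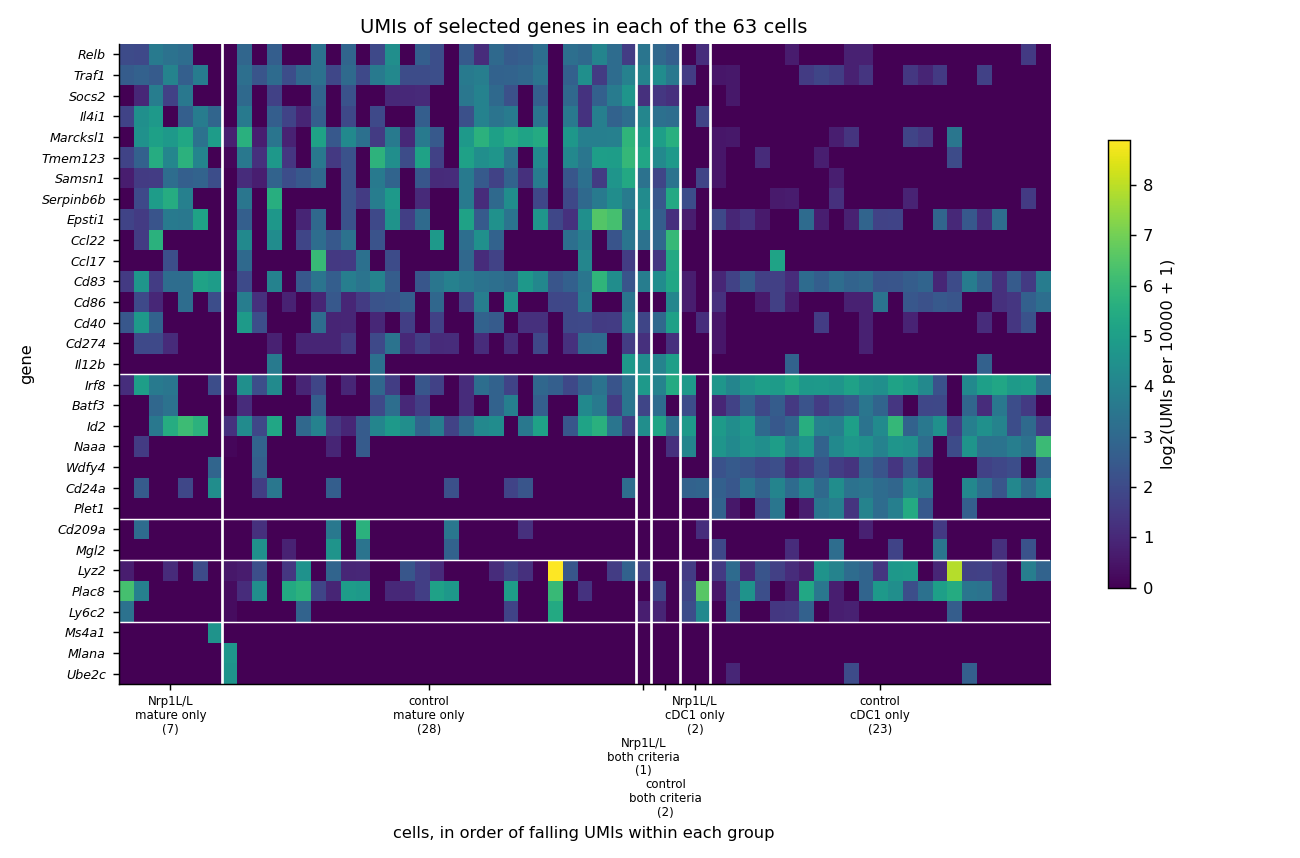
Heat map of log2(UMIs per 10000 + 1) for selected genes (rows) in each of the 63 cells (columns, in order of falling UMIs within each group). Genes run from mature through cDC1 and cDC2 to monocyte, B cell, melanoma and cell cycle genes. Il12b is lit in all 3 cells meeting both criteria, and Mlana and Ube2c in the first control mature column, the barcode of 84144 UMIs.

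Nrp1L/L over control mature cells, compared next, rest on 7 and 28 cells (27 without the barcode of 84144 UMIs). The mature identity list was higher for 7 of 26 measured genes and lower for 4 (median 0.57), where 12.8% of 2609 genes were at least 2-fold higher and 20.7% lower (median -0.16). Without that barcode 4 were higher and 4 lower (median 0.16), where 13.3% of 1965 genes were higher and 15.8% lower (median 0.03). The higher count of NF-κB genes was near the share of all genes, with 2 higher and 1 lower of 15 (median 0.38). Without that barcode 1 was higher and 2 lower (median -0.02). Interferon-gamma response genes had 6 of 16 higher and 0 lower (median 0.63), and 3 of 15 higher (median 0.31) without it. Tgtp1, an interferon-inducible GTPase, stood at 163 CPM in Nrp1L/L and 50.5 CPM in control mature cells, from 9 and 17 UMIs.

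The surest lower genes in the Nrp1L/L mature cells included Cxcl2, Lyz2 and Il1b. Lyz2, the myeloid lysozyme, had 3 UMIs (54.2 CPM) in Nrp1L/L and 404 UMIs (1602 CPM) in control mature cells without that barcode, a log2 ratio of -4.89 (-7.17 to -3.33), but 344 of the control UMIs came from 1 cell. Il1b, an inflammatory cytokine, had 6 UMIs in 2 of 7 Nrp1L/L cells and 255 UMIs in 23 of 27 control cells (-3.22, -4.68 to -2.08). Cxcl2, a neutrophil chemokine, had 0 UMIs in Nrp1L/L cells and 178 UMIs in 17 of 27 control cells, so its ratio was at most -3.70. Among the cDC2 markers 0 of 7 were higher and 5 lower (median -1.81), and Mgl2 was one of them, with 0 and 73 UMIs. Of all genes 20.7% were at least 2-fold lower, or 15.8% without that barcode. Pooled over the list, Nrp1L/L mature cells had 20.6 UMIs per 10000 and control mature cells without that barcode 29.1. The medians over cells ran in the opposite order, at 24.3 and 11.9. In cells with both Ccr7 and Fscn1 the medians were 24.3 and 7.37. The list as a whole was thus not lower in each Nrp1L/L cell. In the 16 control cells with both Ccr7 and Fscn1 Il1b stood at 786 CPM (14 cells) and Cxcl2 at 221 CPM (8 cells), and in the 11 without at 1292 and 1309 CPM. The makeup of the control mature arm therefore moved with the values of Cxcl2 and Mgl2, and its part in the result was not tested. Monocyte markers went the other way from the cDC2 marker counts, with 3 of 6 higher and 1 lower (median 1.09). Of the 193 Nrp1L/L monocyte UMIs 90.2% came from 1 cell, which held 121 UMIs of Plac8, and without the cell of most UMIs in each group the median was -1.44.

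Ccl5 was lower in Nrp1L/L mature cells, at 1608 CPM against 4679 CPM in the control (-1.54, -1.87 to -1.23), or -1.95 without the barcode of 84144 UMIs. Both arms varied widely between cells, from 0.622 to 86.6 and from 0 to 460 UMIs per 10000. Il4i1 was higher, at 1084 CPM in Nrp1L/L and 327 CPM in control mature cells (1.73, 1.25 to 2.20), or 1.31 without that barcode, with 27 of 60 Nrp1L/L UMIs in 1 cell. Cd40 was at 723 and 271 CPM (1.42, 0.84 to 1.97), or 1.002 without that barcode, but 27 of its 40 Nrp1L/L and 46 of its 91 control UMIs were in 1 cell each. H2-DMb1 was at 1301 and 241 CPM (2.43, 1.95 to 2.91), but 61 of its 72 Nrp1L/L UMIs were in 1 cell, and without the cell of most UMIs in each group the log2 ratio was -0.048. Arfgef1, Plekhg2, Fh1, Nfkbid and Ifi205 were among the leading higher genes, with 21 to 52 Nrp1L/L UMIs each. With 7 cells, 1 cell can set such a value.

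Nrp1L/L over control cDC1 cells rest on 2 and 23 cells, and 1 of the 2 was low in cDC1 identity. Of all 2004 genes 20.01% were at least 2-fold higher and 12.0% lower (median 0.30), that is 401 and 241 genes, a balance that turned to 120 and 666 under TMM scaling and 116 and 669 under median-of-ratios scaling. Of 14 measured cDC1 identity genes 0 were higher and 2 lower (median -0.43). Irf8 differed by -0.51 (-1.01 to -0.05) and Id2 by -0.05 (-0.54 to 0.41). Interferon-gamma genes were higher for 4 of 9 and lower for 1, with a median of 0.57 that turned to -0.25 under TMM scaling, which moved the median of all genes to -0.52. Among them was Cxcl9, a chemokine for CXCR3 on T cells, with 11 Nrp1L/L and 15 control UMIs (3.22, 1.96 to 4.44), but the 11 were in 1 cell and 13 of the 15 were in 1 cell. The named higher genes were Pkig, Fuca2, Upp1, Cd300a, Rab24, Ass1, Bcl11a, Cmtm3, Eif4ebp1 and Apobec3, with 10 to 41 Nrp1L/L UMIs each. Fos, an immediate early gene, had 1 UMI in Nrp1L/L and 637 UMIs in control cDC1 cells, where 22 of 23 cells had it (-5.65, -10.95 to -3.16). Dusp1, another, had 1 and 222 UMIs, and Il1b and Klf2 had 0 against 250 and 242. Fos in the mature arm stood at 560 CPM in Nrp1L/L and 598 CPM in control cells.

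Both arms were also set against the 79 control gated cells that met neither criterion and had a UMI of a cDC2 marker (Cd209a, Clec10a or Mgl2). This group was mixed. It also held 212 UMIs of Ly6d and 80 of Siglech, plasmacytoid dendritic cell markers, and 1093 of Apoe, a macrophage marker. Mature cells (27, without the barcode of 84144 UMIs) were at least 2-fold higher for 24 of 26 measured mature identity genes and lower for 0 (median 3.47), where 11.6% of 4553 genes were higher and 24.4% lower (median -0.23). Serpinb6b had 188 UMIs in mature cells and 3 in the cDC2-marker cells (7.58, 6.01 to 9.87), and Tnfrsf4 had 102 and 0, a log2 ratio of at least 6.70. Ccl17 differed little, at 472 CPM in mature cells and 670 CPM in cDC2-marker cells (-0.51, -0.81 to -0.22). Of 10 measured cDC1 identity genes 2 were higher and 3 lower in mature cells (median -0.19). Irf8 stood at 496 and 493 CPM there, and Id2 at 1277 and 541 CPM.

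The cDC1 cells were at least 2-fold higher than the cDC2-marker cells for 14 of 15 measured cDC1 identity genes and lower for 0 (median 2.81), where 9.22% of 4643 genes were higher and 20.2% lower (median -0.12). Gcsam, Plpp1, Itgae, Laptm4b and Pianp led them, and Plet1 had 178 UMIs in cDC1 cells and 47 in cDC2-marker cells (3.30, 2.83 to 3.80). NF-κB genes ran in opposite directions in the arms against the same cells. In mature cells 11 of 18 were higher and 0 lower (median 1.40), and in cDC1 cells 0 of 17 were higher and 9 lower (median -1.20). Nfkbia stood at 1479 CPM in mature cells, 122 CPM in cDC1 cells and 1008 CPM in cDC2-marker cells. Type I interferon genes were lower in cDC1 cells for 12 of 20 (median -1.40), against 20.2% of all genes. In mature cells 4 of 21 were lower and 1 higher (median -0.29), near the 24.4% of all genes lower and their median of -0.23. Both comparisons share the cDC2-marker cells.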

How the data were processed

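Single-cell 3' RNA libraries of CD45+ cells from B16 tumours were used, 1 per genotype. The authors deposited whole-number UMI counts per gene and barcode, made with Cell Ranger 1.3 on the mm10 genome per the submitters' processing notes. Both matrices list 27998 genes and hold barcodes already called as cells. Barcodes with under 200 genes, or above 10% mitochondrial UMIs, would have been dropped, and there were 0. Doublets were scored with Scrublet in scanpy 1.11.5 and kept, and leaving out the highest 2% of scores was an alternative. The cell rule was applied to raw UMIs in Python 3.11.15 (numpy 2.4.6, pandas 2.3.3, scipy 1.17.1), with duplicated symbols summed. UMIs were summed per library and arm and divided by that group's total (CPM). Log2 ratios carry exact conditional binomial intervals, CPM exact Poisson intervals and shares Clopper-Pearson intervals, all at 95%. A group at 0 was set to a floor of 3 counts over the group, which gives a bound. Code for the ratios was tested on simulated data. Cells meeting both criteria were left out of arm comparisons. Genes with at least 20 UMIs over both groups were counted.

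Named genes were the 10 higher and 10 lower in each comparison whose interval bound lay farthest from 0, the most abundant and most different members of each list, and the rule's genes; others were chosen after their values were seen. Some genes that the rule names are not reported here. Mitochondrial, ribosomal and predicted genes stayed out of that ranking. The members and the gene lists were chosen with earlier results of these data known. Promoter sequences are from RefSeq (GRCm38.p6). Reads without replicate libraries give no test of genotype, so no p-value was computed. Depth was 8978610 UMIs in the Nrp1L/L library and 13042802 in the control. Alternatives were other criteria, thinning, other scalings (TMM, median of ratios), other UMI minimums, means over cells, and leaving out cells.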

Additional observations from a re-analysis of the deposited data

How the results depend on the processing

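No paired analysis was possible because each genotype has 1 library. Of 136 alternative values of shares and gene counts 94 stayed within the set limits, 41 moved and 1 reversed; of 1035 list medians 932 stayed, 92 moved and 11 reversed; of 1037 named gene ratios 918 stayed, 115 moved and 4 reversed. The settings with both Ccr7 and Fscn1, without the barcode of 84144 UMIs, and with control cells thinned to the Nrp1L/L depth were chosen after seeing the data. The cause of these moves was not tested beyond what each setting does by construction. The cDC1 share difference lay between -2.16 and -1.07 points under all settings run. The mature share difference turned to 0.159 points without cells with markers of other types, a filter that left 0 Nrp1L/L cDC1 cells and hence no cDC1 or arm ratio there. TMM and median-of-ratios scaling subtracted 0.82 and 0.82 (log2) from all ratios in the genotype comparison of cDC1 cells. They subtracted 0.37 and 0.33 in that of mature cells, and -0.40 and -0.45 in the Nrp1L/L arms. In the control arms TMM subtracted 0.15. The median of all genes thus fell in both genotype comparisons and in the control arms, and rose in the Nrp1L/L arms.

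For Nrp1L/L over control cDC1 cells, genes at least 2-fold higher (401) and lower (241) became 120 and 666 with TMM, 116 and 669 with median of ratios, and 124 and 133 at 50 UMIs. The higher count was 3010 at 5 UMIs and 629 at 40 MHC class II UMIs. Without the cell of most UMIs in each group they were 1013 and 118. For mature cells (334 and 540) they were 161 and 199 without markers of other types, 99 and 230 at 50 UMIs, and 162 and 244 with both Ccr7 and Fscn1. The higher count was 166 with TMM, 182 with median of ratios and 2157 at 5 UMIs. The lower count was 308 at 40 MHC class II UMIs, 311 with C1q under 3, without cycling cells or without the barcode of 84144 UMIs, and 347 without the top cells. For mature over cDC1 in the Nrp1L/L library (134 and 100) they were 41 and 24 at 50 UMIs and 397 and 596 at 5 UMIs, and the lower count was 58, 57 and 63 with TMM, median of ratios and without the top cells. In the control (774 and 447) they were 298 and 166 at 50 UMIs, 1948 and 1190 at 5 UMIs, and 504 and 698 with both Ccr7 and Fscn1. The higher count was 497 at 40 MHC class II UMIs, 507 with C1q under 3, 332 without markers of other types and 504 without cycling cells.

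Reversed values in cDC1 cells between genotypes were Apobec3 -0.046 and the monocyte median -0.51 at 40 MHC class II UMIs. At 5 UMIs the costimulation and mature identity medians were 0.46 and 1.302, and without the top cells 0.33 and 0.85. In mature cells Birc5 was 0.43 and the cell cycle and melanoma medians 0.064 and 0.044 as means over cells. Without the top cells there H2-DMb1 was -0.048 and the cell cycle and monocyte medians 0.068 and -1.44. Between arms, Ldha was 0.36 without the top cells (Nrp1L/L), and in the control the cDC2 median was -2.49 with both Ccr7 and Fscn1 and the regulator median -0.12 at 50 UMIs. Cell number limits the Nrp1L/L values, where 2 cDC1 and 7 mature cells give floors of 129 and 54.2 CPM (3 counts over the group).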
